A study of Canis lupus familiaris with 7 samples.

Results

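The mitochondrial carriers of the SLC25 family were read on Affymetrix canine arrays by 85 probe sets for 41 genes, out of 42924 probe sets that are not the array maker's controls. A probe set, a group of short probes aimed at one transcript, was counted as a member where the platform annotation gave it a single gene symbol starting with SLC25A, with no use of its signal. SLC25 proteins sit in the inner mitochondrial membrane and exchange nucleotides, phosphate, organic acids, amino acids, cofactors and ions between the matrix and the cytosol. In heart muscle the ADP/ATP carrier and the phosphate carrier supply ATP synthase with its substrates and send ATP out to the contractile apparatus, and the aspartate/glutamate and oxoglutarate/malate carriers complete the malate-aspartate shuttle that brings reducing equivalents into the matrix. Most carriers are small proteins of a shared fold, and several have close paralogs, so a probe set may also read a sister gene.

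The RNA was total RNA from left ventricles of mongrel dogs, male and adult, and each sample was hybridised to its own 1-colour array. The low-salt group held 4 samples (numbered 1 to 4) of dogs fed a diet with 0.5% sodium chloride for 2 weeks, and the control group held 3 samples (numbered 1, 3 and 4). The design text speaks of more dogs on the diet than there are low-salt arrays, and whether RNA was pooled is not stated. The labels give no salt content for the control diet and no genotype beyond mongrel. Nothing says that the samples of a group came from separate dogs, so p-values measure only the spread between these samples, which may be technical. The question was which carrier transcripts differ in the ventricle when dietary salt is low.

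Signals are given as the log2 of the array signal plus 16 after quantile normalization, a step that gives every array the same distribution, so that a signal of 0 lies at 4. A change is low salt minus control on this scale, understates the change of dim probe sets, and carries the standard error (SE) of a limma fit over all 28616 tested probe sets. The dimmest part of the array was left untested, which left 63 SLC25 probe sets for 35 genes. SLC25A15, SLC25A25, SLC25A41, SLC25A42, SLC25A45 and SLC25A53 were represented by untested probe sets only. The filter used the mean of all 7 arrays, so a probe set dim in one group could enter through the other. That held for 7 of the 63, whose mean lay under the filter level of 5 in the controls (4 probe sets) or in the low-salt samples (3 probe sets). Signals of different probe sets do not rank transcripts by abundance, because probes differ in their response. Signal therefore sets only the order of description.

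The 7 arrays had been scaled to the same trimmed mean of 150, and their medians still differed by 0.93 on the log2 scale before quantile normalization. Among the 9 cardiomyocyte markers on the array, including MYH7, MYL2, RYR2 and PLN, the mean level of their brightest probe sets was 13.24 to 13.34 in the controls and 13.23 to 13.36 in the low-salt samples, and 0 of 9 had a brightest probe set with a mean deposited signal below 50. The 7 macrophage markers, among them the complement genes C1QB and C1QC, had a mean level of 6.45 to 7.04 in the controls and 7.01 to 7.39 in the low-salt samples, and 3 of their 12 tested probe sets were higher at an unadjusted limma p under 0.05, against 5.27% of the array. The smooth muscle and pericyte markers had 2 of 12 higher, of CNN1 and TAGLN. The CNN1 one had a control level of 4.64, under the filter level, so it was tested only through the low-salt samples. On their brightest tested probe sets 3 of the 7 genes of that list were above 0, with a median of -0.07. The other marker lists had at most 1 tested probe set in each direction. Of the 4 tested fast skeletal muscle genes, the troponin gene TNNI2 was lower (a change of -2.38, limma, adjusted p = 0.0411), MYH4 differed by -0.82 on its brightest probe set, MYH2 by 0.10 and MYLPF by 0.28. Of the untested genes, ACTN3 stood at 4.39 in the controls and 5.30 in the low-salt samples. MYH1 stood at 5.45 and 4.57, and TNNT3 at 4.70 and 4.56. The GAPDH signal ratio of the 3' to the 5' probe set, a measure of RNA integrity, was 2.58 ± 0.178 (SD, n = 3) in the controls and 2.27 ± 0.17 (SD, n = 4) in the low-salt samples, the smallest p that 35 splits allow (exact two-sided permutation p = 0.0571). Another pair of GAPDH probe sets gave a ratio of 22.7 to 40.9 in the controls and 14.5 to 22.6 in the low-salt samples, at the same exact permutation p. The part of these differences in the carrier values was not tested. In whole ventricle, fewer cells of a type and less RNA per cell cannot be told apart.

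No SLC25 probe set passed an adjusted p of 0.05: limma called 0 of 63, against 99 of 28616 over the array (0.346%), of which 11 were higher and 88 lower under low salt. The smallest adjusted limma p in the family was 0.116. At an unadjusted limma p under 0.05 there were 9 of 63 (14.3%), with 3 higher and 6 lower, against 11% of the array, 5.27% higher and 5.78% lower. Run on the same values, the methods' t-test gave 0 calls in the family after adjustment (smallest adjusted p 0.384) and 2 higher and 4 lower before it. At the study's own threshold, an unadjusted p of 0.05 with a 2-fold change, limma placed 3 of 63 probe sets (4.76%), all lower, against 4.4% of the array. That count was 8 with an offset of 1, 0 with an offset of 64, 6 as deposited and 5 after setting array medians equal. It was 8 without control 4, 5 without control 3 and 5 without low-salt 2. The count over the whole array moved as well. From 1260 in the main fit it went to 1925 with an offset of 1 and 215 with an offset of 64. As deposited it was 2164, and 1689 after setting array medians equal. It was 2092 without control 4, 1701 without control 3 and 1264 without low-salt 2. The 3, a pair for SLC25A23 and one for SLC25A44, were the same 3 whose low-salt mean lay under the filter level. The other counts lay near the shares of the array, and the lower ones at an unadjusted limma p under 0.05 were 9.52% of the family. They came from SLC25A13, SLC25A34, SLC25A36, SLC25A44 and a pair of probe sets for SLC25A23. That pair and SLC25A44 entered the test only through their controls, so this share is not read as a trait of the family.

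The median change over the 63 tested probe sets was 0.08 (quartiles -0.24 and 0.36), beside 0.04 over all tested probe sets (quartiles -0.25 and 0.31). Single changes ran from -1.77 to 0.93, with 35 above 0 and 28 below, or 55.6% above 0 against 53.8% of the array. The groups did not overlap for 8 of 63 (12.7%), 3 higher and 5 lower, against 10.8% of the array, 5.13% higher and 5.68% lower. That count belongs to the normalized scale. In deposited signal the groups overlapped for the 3 higher ones, of SLC25A21, SLC25A38 and SLC25A40, and for SLC25A4. Those of SLC25A13, SLC25A23 and SLC25A44 stayed apart. The spread between samples was of the same order in the family and over the array, with a median pooled SD of 0.39 and 0.42. The choice of scaling shifted all genes together: the median change of all tested probe sets was -0.18 without further scaling of the deposited values and 0.26 with array medians set equal, and that of the family was -0.11 and 0.32. Relative to the array, the family's median stood within 0.1 of it under each scaling.

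**Figure D1:**
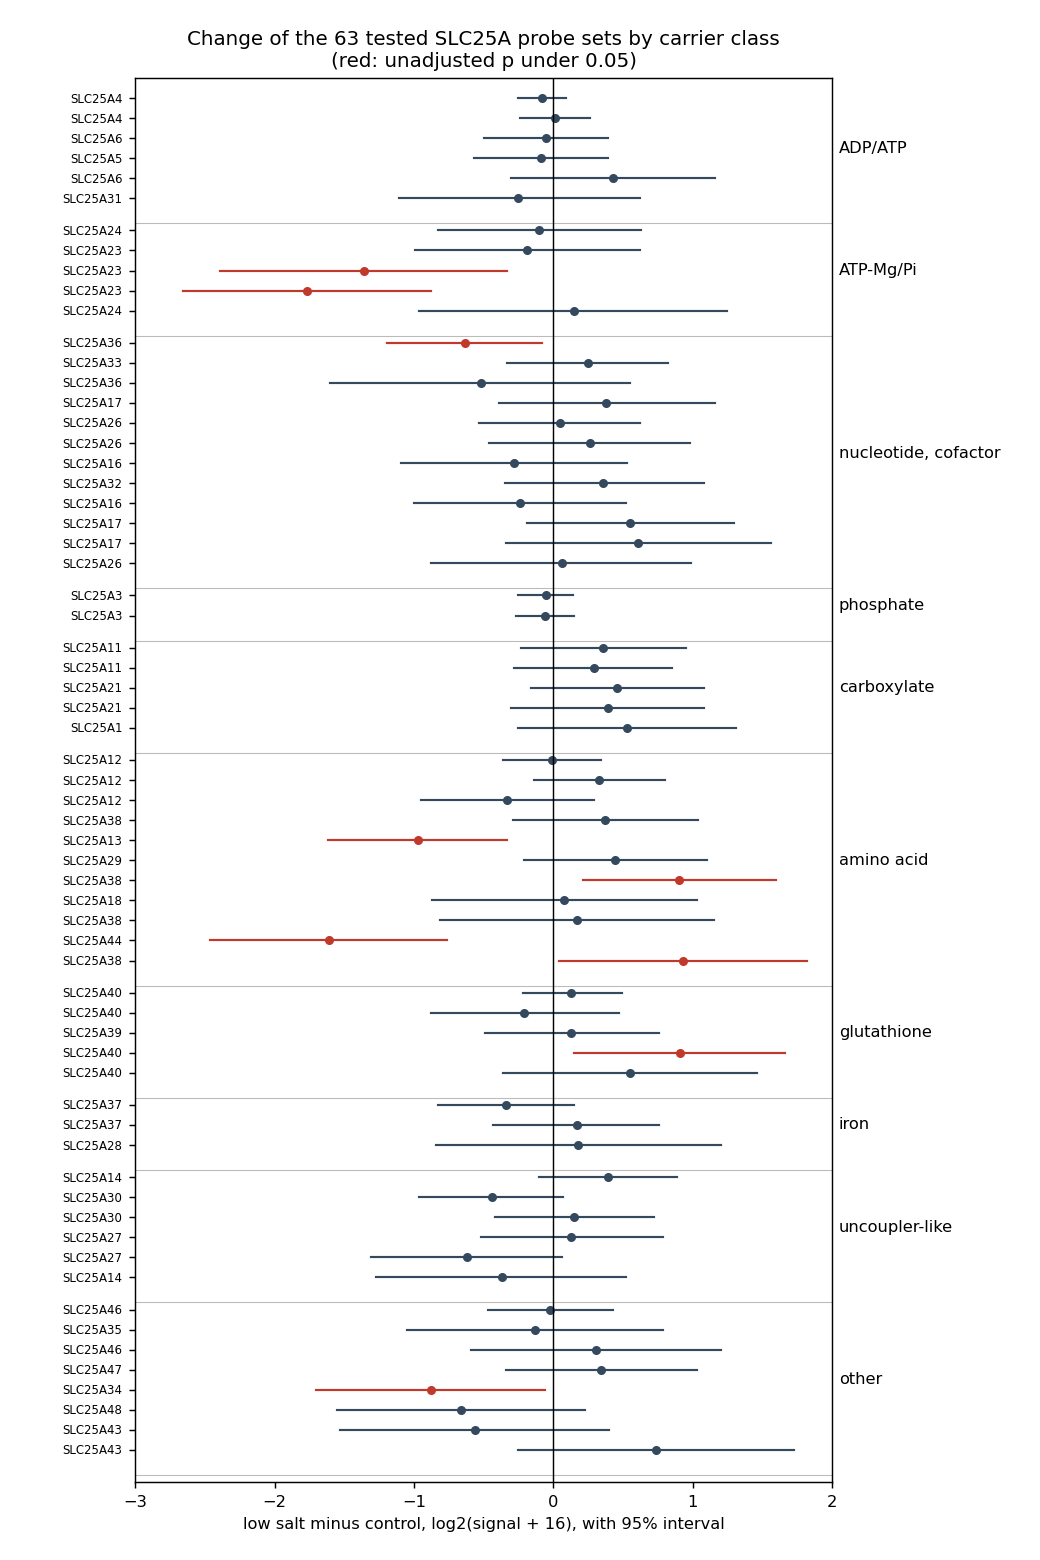
Change (low salt minus control, log2 of signal plus 16, with its 95% interval) of the 63 tested SLC25 probe sets, 1 line per probe set, grouped by transported substrate and ordered by signal within a group, with red marking an unadjusted limma p under 0.05. The bright ADP/ATP and phosphate carriers have narrow intervals around 0, while the 9 red probe sets lie on either side of 0 with 3 higher and 6 lower; with array medians set equal the median of the 63 moves up to 0.32 and the brightest probe sets of SLC25A3, SLC25A4, SLC25A5 and SLC25A6 take positive values.

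The ADP/ATP carriers export ATP made in the matrix in exchange for cytosolic ADP. SLC25A4 (ANT1), the isoform of heart and muscle, had the brightest probe set of the family (Cfa.740.2.S1_at), at 13.94, 13.91 and 13.91 in controls 1, 3 and 4 and at 13.83, 13.80, 13.88 and 13.83 in low-salt samples 1 to 4. Every low-salt sample stood below every control, by a small step, and the probe set ranked 12 to 15 of 42924 in the controls and 17 to 24 in the low-salt samples. In deposited signal the groups overlapped, with control 4 at 12200 and low-salt sample 1 at 15200. The change was -0.08 ± 0.08 (SE, 95% interval -0.25 to 0.09), which limma did not separate from 0 (adjusted p = 0.747). The moderated SE of limma exceeds this probe set's own spread, and the methods' t-test gave an unadjusted p of 0.0138 and an adjusted p of 0.411. The sign depended on scaling, at -0.33 as deposited and 0.11 after setting array medians equal. The other SLC25A4 probe set differed by 0.01 ± 0.12.

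SLC25A6 (ANT3), a broadly expressed ADP/ATP carrier, read 10.49, 10.98 and 10.23 in the controls and 10.67, 10.10, 10.78 and 10.49 in the low-salt samples on its brightest probe set. The groups overlapped, and the change of -0.05 ± 0.21 (95% interval -0.50 to 0.39) took either sign across scalings (0.08 as deposited, 0.51 with medians set equal). Its second probe set differed by 0.43 ± 0.34 with overlap. SLC25A5 (ANT2), the isoform of dividing cells, read 8.70, 8.48 and 8.61 against 8.43, 8.70, 8.12 and 8.77, a change of -0.09 ± 0.22 (95% interval -0.57 to 0.39), with low-salt sample 3 lowest and the sign turned with medians set equal (0.40). SLC25A31 (ANT4), the testis isoform, was dim, with a mean of 5.12 over the arrays and a change of -0.25 ± 0.40. Over the 6 tested probe sets of these 4 genes none reached an unadjusted limma p of 0.05, 2 were above 0 and 4 below, and the median was -0.07.

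SLC25A3, the phosphate carrier that feeds ATP synthase, read 13.59, 13.65 and 13.57 in the controls and 13.59, 13.64, 13.41 and 13.57 in the low-salt samples. The groups overlapped, with low-salt sample 3 lowest, and the change was -0.05 ± 0.09 (95% interval -0.25 to 0.14). Its other probe set gave -0.06 ± 0.10 (95% interval -0.27 to 0.15). Quantile normalization sets the level of such bright probe sets by their rank on the array. As deposited, SLC25A4 signals ran from 11800 to 21500, and the SLC25A3 change was -0.24, so the narrow intervals belong to the scaling used. Under it, 9 of the 63 intervals lay within a 1.5-fold change in either direction (14.3%, against 9.47% of the array), and 4 of them belonged to SLC25A3 and SLC25A4. The others were single probe sets of SLC25A5, SLC25A6, SLC25A12, SLC25A40 and SLC25A46. With array medians set equal the change of SLC25A3 was 0.19, below the shift of the whole array.

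**Figure D2:**
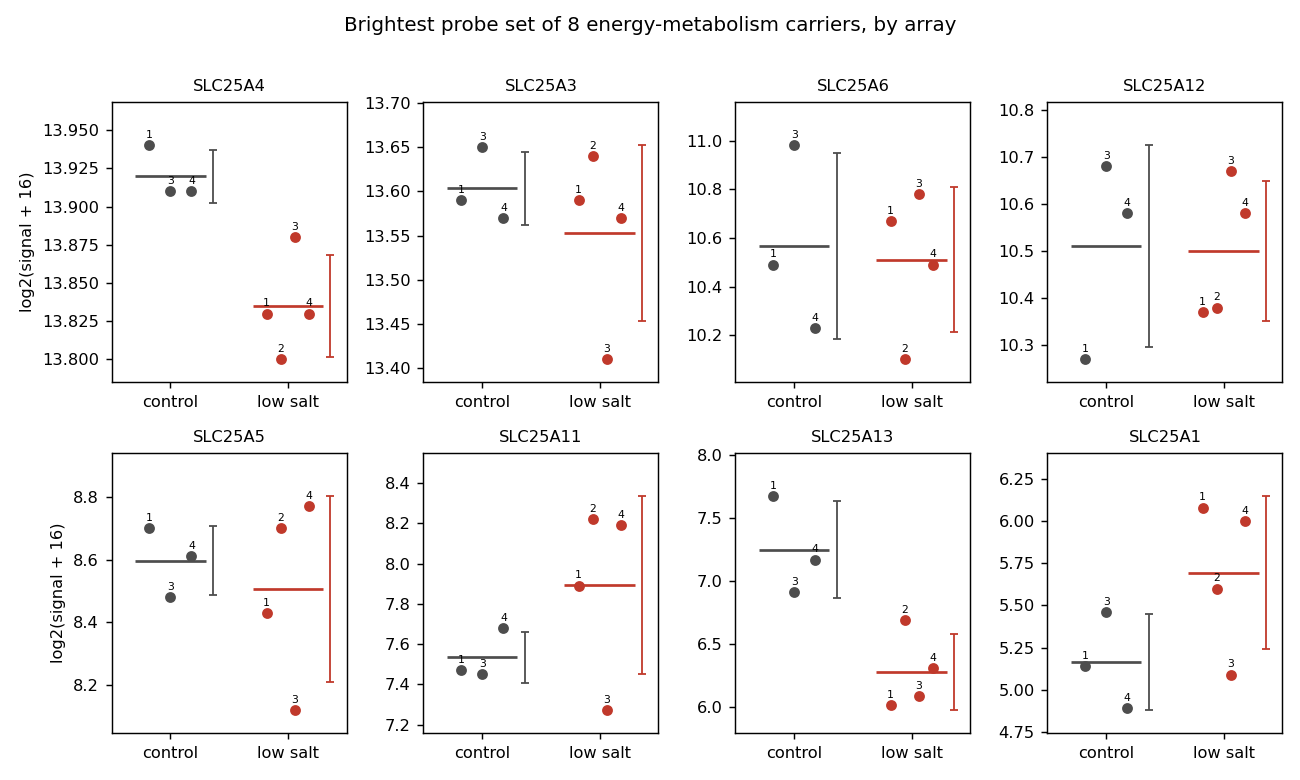
Level (log2 of signal plus 16) of the brightest tested probe set of 8 carriers of energy metabolism in the 3 control samples (grey) and 4 low-salt samples (red), with the sample number at each point, the group mean as a horizontal line and 1 SD as a bar, and a separate axis range for each gene that does not start at 0. The groups are apart for SLC25A4, by 0.08, and for SLC25A13, by 0.97, and overlap for the other 6. In deposited signal the groups of SLC25A4 overlap. The sign of SLC25A3, SLC25A4, SLC25A5, SLC25A6 and SLC25A12 changes under another scaling.

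The carriers of the malate-aspartate shuttle did not move as a group. SLC25A12 (aralar), the calcium-activated aspartate/glutamate carrier of heart, muscle and brain, read 10.27, 10.68 and 10.58 in the controls and 10.37, 10.38, 10.67 and 10.58 in the low-salt samples. The groups covered the same range, and the change was -0.01 ± 0.16 (95% interval -0.36 to 0.34), or 0.12 as deposited and 0.56 with medians set equal. Its other probe sets differed by 0.33 ± 0.22 and -0.33 ± 0.29.

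SLC25A13 (citrin), the sister carrier best known from liver, has 1 probe set (CfaAffx.4146.1.S1_s_at), which read 7.67, 6.91 and 7.17 in the controls and 6.02, 6.69, 6.09 and 6.31 in the low-salt samples. All 4 low-salt samples stood below all 3 controls, with control 1 highest and low-salt sample 2 nearest to the controls. The change was -0.97 ± 0.30 (95% interval -1.62 to -0.33, 1.96-fold), with an adjusted limma p of 0.267. It kept an unadjusted p under 0.05 in each of the 17 alternatives run on probe sets, in which the change ran from -1.20 to -0.67. SLC25A11, the oxoglutarate/malate carrier that completes the membrane steps of the shuttle, read 7.47, 7.45 and 7.68 against 7.89, 8.22, 7.27 and 8.19. Of its low-salt samples 3 lay above the controls and sample 3 below them, and the change was 0.36 ± 0.27 (95% interval -0.23 to 0.95, limma, adjusted p = 0.658).

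Without low-salt sample 3 the change of SLC25A11 was 0.58 with an unadjusted limma p under 0.05. Its second tested probe set differed by 0.29 ± 0.26. One more, too dim to be tested, stood 0.41 above the controls near the bottom of the scale. There the groups were barely apart, with control 4 at 4.28 and low-salt sample 1 at 4.29, and they overlapped in deposited signal. The enzymes of this and the glycerophosphate shuttle (GOT1, GOT2, MDH1, GPD1 and GPD2) gave 9 tested probe sets with a median change of 0.06, and limma called none at an unadjusted p of 0.05.

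SLC25A1, the citrate carrier that exports citrate for lipid synthesis, read 5.14, 5.46 and 4.89 in the controls and 6.08, 5.60, 5.09 and 6.0 in the low-salt samples. Low-salt samples 1, 2 and 4 exceeded every control and sample 3 did not, for a change of 0.53 ± 0.36 (95% interval -0.25 to 1.31, limma, adjusted p = 0.624). SLC25A21, the oxoadipate carrier of lysine breakdown, had no overlap on its brighter probe set, at 6.49, 6.51 and 6.32 against 6.58, 6.72, 6.91 and 7.40, a change of 0.46 ± 0.29 (limma, adjusted p = 0.585), and differed by 0.39 ± 0.32 on the other. In deposited signal the brighter one overlapped, at 73.6 to 91.7 in the controls and 64.9 in low-salt sample 1. All 5 tested probe sets for carboxylate carriers were thus above 0, between 0.29 and 0.53 with a median of 0.39, and limma placed 0 of 5 under an unadjusted p of 0.05. Each of the 5 intervals included 0.

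The remaining amino acid carriers included wide differences in either direction. SLC25A44, which brings branched-chain amino acids into mitochondria, read 6.13, 6.51 and 5.81 in the controls and 4.12, 4.62, 4.13 and 5.29 in the low-salt samples (probe set CfaAffx.25764.1.S1_at). The deposited signals behind these levels were 67.5, 73.6 and 63.7 in the controls and 0.754, 5.59, 2.30 and 13.8 in the low-salt samples, so that low-salt samples 1 and 3 lay close to the bottom of the scale. The change was -1.61 ± 0.40 (95% interval -2.46 to -0.76, limma, adjusted p = 0.137). The low-salt mean of 4.54 lay under the filter level, so the probe set was tested only through its controls, and no fold is given.

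The size of the SLC25A44 difference followed the offset added before the logarithm, at -3.23 with an offset of 1 and -0.73 with 64, and the sign was negative in each of the 16 alternatives that kept the probe set. On values as deposited, without quantile normalization, it was -2.0 and passed (limma, adjusted p = 0.041). A second SLC25A44 probe set, under the filter and untested, differed by -0.26 with overlap.

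SLC25A38, which imports glycine for heme synthesis, was read by 4 tested probe sets, all above 0. The first (CfaAffx.8562.1.S1_at) stood at 4.97, 5.08 and 5.48 in the controls and 5.98, 5.87, 6.48 and 6.0 in the low-salt samples, without overlap. In deposited signal control 4, at 47.1, lay above low-salt samples 1, 2 and 4. The change of this probe set was 0.90 ± 0.32 (95% interval 0.21 to 1.60, limma, adjusted p = 0.339). Another (Cfa.10598.1.A1_at) stood at 5.07, 4.20 and 4.45 against 4.94, 5.57, 5.25 and 6.25, where low-salt sample 1 fell below control 1, with a change of 0.93 ± 0.41 (limma, adjusted p = 0.434). Its control mean of 4.57 lay under the filter level, so it was tested only through the low-salt samples, and the gene mean below includes it. The brightest of the 4 differed by 0.37 ± 0.31 and the last by 0.17 ± 0.46, both with overlap, and one more that was not tested by -0.13.

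The mean of the 4 tested SLC25A38 probe sets differed by 0.60 ± 0.26 (limma, adjusted p = 0.446 over 11381 genes). SLC25A29, a carrier of basic amino acids, differed by 0.44 ± 0.31 and SLC25A18, a glutamate carrier, by 0.08 ± 0.44. Over the 11 tested probe sets for amino acid carriers, 2 were higher and 2 lower at an unadjusted limma p under 0.05. Over the array 5.27% were higher and 5.78% lower. Of these calls, SLC25A44 and the second SLC25A38 probe set were tested only through the group where they were brighter. The median change of the 11 was 0.17.

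SLC25A23 is a calcium-regulated carrier that exchanges ATP-Mg for phosphate and so sets the adenine nucleotide content of the matrix. Its probe set CfaAffx.28495.1.S1_at stood at 6.53, 6.33 and 6.51 in the controls and 4.21, 4.29, 5.80 and 4.46 in the low-salt samples. The controls lay close together, low-salt samples 1, 2 and 4 lay near the bottom of the scale, and sample 3 lay between. In deposited signal these were 90.9, 63.9 and 103 in the controls and 1.40, 2.02, 55.4 and 3.26 in the low-salt samples.

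The change of this SLC25A23 probe set was -1.77 ± 0.41 (95% interval -2.66 to -0.88, limma, adjusted p = 0.116). The low-salt mean of 4.69 lay under the filter level, so this probe set too was tested only through its controls, and no fold is given. It passed the adjusted threshold with array weights (-1.90, limma, adjusted p = 0.0429) and without low-salt sample 3 (-2.11, limma, adjusted p = 0.0258). With an offset of 1 it was -3.20 and with 64 it was -0.85. SLC25A44 had the larger change of the pair with an offset of 1, as deposited and after setting array medians equal.

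A further SLC25A23 probe set (CfaAffx.28499.1.S1_at) read 7.43, 5.91 and 5.61 against 4.89, 4.09, 5.29 and 5.56. Control 1 stood far above the other samples, and control 4 exceeded low-salt sample 4 by only a small margin. The change was -1.36 ± 0.48 (95% interval -2.39 to -0.33, limma, adjusted p = 0.331, with a low-salt mean of 4.96, under the filter level), and -0.79 without control 1, where the unadjusted limma p was no longer under 0.05. The brightest SLC25A23 probe set (Cfa.17910.1.S1_s_at) read 6.24, 5.85 and 6.75 in the controls and 6.12, 5.63, 6.93 and 5.70 in the low-salt samples. There the highest sample was low-salt sample 3, the groups overlapped, and the change was -0.19 ± 0.37 (95% interval -0.99 to 0.62).

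The probe sets for SLC25A23 thus shared a sign and differed in size by 1.58 on the log2 scale, the widest range among the 20 genes with more than 1 tested probe set. Their mean differed by -1.10 ± 0.34 (limma, adjusted p = 0.294). That mean includes CfaAffx.28495.1.S1_at and CfaAffx.28499.1.S1_at, which were tested only through their controls. The brightest probe set, which did not depend on 1 group, gave -0.19 ± 0.37. SLC25A24, the paralog, differed by -0.10 ± 0.34 and 0.15 ± 0.51. SLC25A25 and SLC25A41, further members of this ATP-Mg/phosphate group, had untested probe sets with differences of 0.22 and -0.02.

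**Figure D3:**
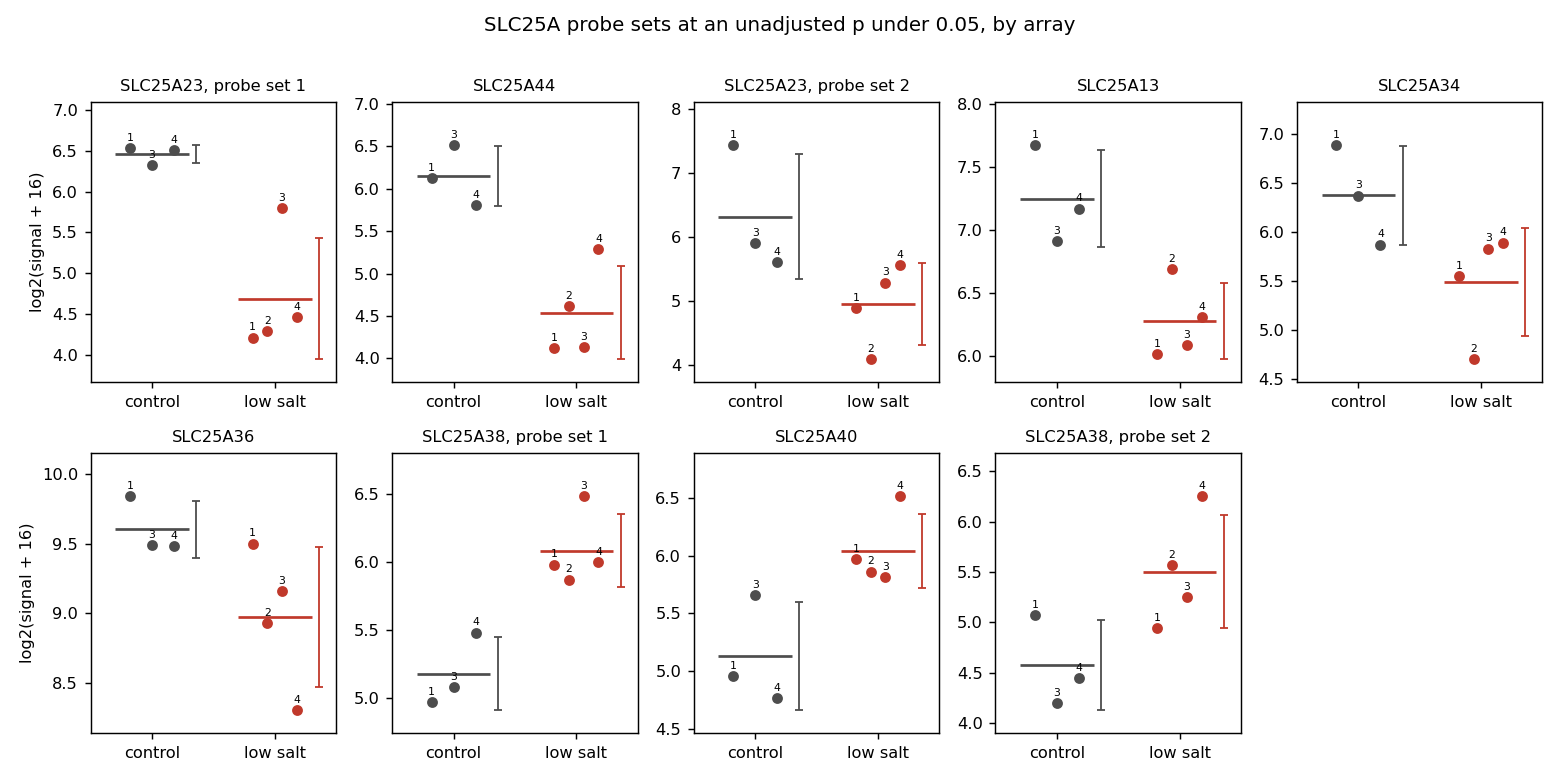
Level (log2 of signal plus 16) by sample of the 9 SLC25 probe sets with an unadjusted limma p under 0.05, with controls in grey, low-salt samples in red, the sample number at each point, the group mean as a line and 1 SD as a bar; "probe set 1" and "probe set 2" of SLC25A23 are CfaAffx.28495.1.S1_at and CfaAffx.28499.1.S1_at, and those of SLC25A38 are CfaAffx.8562.1.S1_at and Cfa.10598.1.A1_at. Groups overlap for SLC25A34, SLC25A36 and the second SLC25A38 probe set and are apart for the other 6, while low-salt sample 3 of SLC25A23 probe set 1 stands at 5.80 above the 3 others at 4.21 to 4.46. In deposited signal the groups of SLC25A40 and of the first SLC25A38 probe set overlap as well.

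Among the other nucleotide and cofactor carriers the pyrimidine nucleotide carrier SLC25A36 was the brightest. It read 9.84, 9.49 and 9.48 in the controls and 9.50, 8.93, 9.16 and 8.30 in the low-salt samples (CfaAffx.12315.1.S1_s_at). Low-salt sample 1 reached the control range and sample 4 was lowest, and the change was -0.63 ± 0.26 (95% interval -1.19 to -0.08, 1.55-fold, limma, adjusted p = 0.394). With array medians set equal it was -0.11. Its other probe set ranged from 6.97 to 9.67 over the samples and differed by -0.52 ± 0.50.

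SLC25A33, the second pyrimidine nucleotide carrier, differed by 0.25 ± 0.27, the opposite sign to SLC25A36, and the difference between these genes was not tested. The peroxisomal cofactor carrier SLC25A17 was above 0 on its 3 probe sets, by 0.38, 0.55 and 0.61, with a mean of 0.51 ± 0.29 (limma, adjusted p = 0.552). The probe set at 0.61 had a control mean of 4.98, under the filter level, so it was tested only through the low-salt samples. SLC25A26, which imports the methyl donor S-adenosylmethionine, differed by 0.05, 0.26 and 0.06, and SLC25A16, linked to coenzyme A, by -0.28 and -0.24. The folate and FAD carrier SLC25A32 differed by 0.36 ± 0.33. Over the 12 tested probe sets of this group 1 was lower and 0 higher at an unadjusted limma p under 0.05, against 5.78% and 5.27% of the array. Their median change was 0.15.

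The glutathione carriers had 5 tested probe sets. The probe set CfaAffx.3669.1.S1_at of SLC25A40 stood at 4.96, 5.66 and 4.77 in the controls and 5.97, 5.86, 5.81 and 6.51 in the low-salt samples. The groups did not overlap, control 3 came within 0.15 of low-salt sample 3, and the change was 0.91 ± 0.35 (95% interval 0.15 to 1.66, limma, adjusted p = 0.373). In deposited signal control 3, at 34.5, lay above low-salt samples 1 and 2. The brightest SLC25A40 probe set, at a mean level of 10.66 against 5.65, differed by 0.13 ± 0.17 (95% interval -0.22 to 0.49), and the other tested ones by -0.21 ± 0.31 and 0.55 ± 0.42. The last of these, with a control mean of 4.75, was tested only through the low-salt samples. SLC25A39, the paralog, differed by 0.13 ± 0.29.

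The mitochondrial iron importers differed in sign within one gene. SLC25A37 (mitoferrin 1) was -0.34 ± 0.23 on its brighter probe set and 0.17 ± 0.28 on the other, and SLC25A28 (mitoferrin 2) was 0.18 ± 0.47. The carriers related to uncoupling proteins behaved likewise: SLC25A14 differed by 0.39 ± 0.23 and -0.37 ± 0.41, SLC25A27 by 0.13 ± 0.30 and -0.62 ± 0.32, and SLC25A30 by -0.44 ± 0.24 and 0.15 ± 0.27. None of these 9 probe sets reached an unadjusted limma p of 0.05.

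Of the carriers without an assigned substrate here, SLC25A34 read 6.88, 6.37 and 5.87 in the controls and 5.55, 4.70, 5.83 and 5.89 in the low-salt samples. Low-salt sample 4 exceeded control 4, sample 2 was lowest, and the change was -0.88 ± 0.38 (95% interval -1.70 to -0.06, limma, adjusted p = 0.416). SLC25A48 differed by -0.66 ± 0.41, SLC25A35 by -0.13 ± 0.43 and SLC25A47 by 0.34 ± 0.32. The SLC25A43 probe sets went opposite ways, at -0.56 ± 0.45 and 0.74 ± 0.46. The latter, with a control mean of 4.73, was tested only through the low-salt samples. SLC25A46, an outer membrane relative that takes part in mitochondrial dynamics, differed by -0.02 ± 0.21 and 0.31 ± 0.42.

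With each of the 7 samples left out in turn, an unadjusted limma p under 0.05 was kept 7 times by SLC25A13, SLC25A44, the first SLC25A23 probe set and the first SLC25A38 probe set. The second SLC25A23 probe set kept it 6 times, SLC25A36 and SLC25A40 4 times, and SLC25A34 and the second SLC25A38 probe set 3 times. SLC25A36 lost it without control 1, low-salt 2 or low-salt 4, and SLC25A40 without control 1, control 4 or low-salt 4. SLC25A34 lost it without control 1, control 3, low-salt 1 or low-salt 2. The second SLC25A38 probe set lost it without control 3, control 4 or low-salt 2, and without low-salt 4 it was under the filter. SLC25A44, both SLC25A23 probe sets and the second SLC25A38 probe set were tested only through the group where they were brighter. For those 4 the counts of samples left out are no support for a difference.

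Probe sets of one gene often disagreed. Of the 20 genes with more than 1 tested probe set, 9 had changes of one sign and 11 had both signs, and the median range within a gene was 0.41. The 7 genes with a probe set under an unadjusted limma p of 0.05 had 7 other tested probe sets. Their median of 0.13 pools genes called higher with genes called lower. They were -0.52 for SLC25A36, -0.19 for SLC25A23, 0.37 and 0.17 for SLC25A38, and 0.13, -0.21 and 0.55 for SLC25A40. Only the -0.21 had the opposite sign to the call of its gene. The 0.55 was tested only through the low-salt samples. With the brightest tested probe set standing for each of the 35 genes, limma placed 0 higher and 4 lower at an unadjusted p under 0.05. With the mean of a gene's tested probe sets it placed 1 of the 35 higher, SLC25A38, and 4 lower, among them SLC25A23 and SLC25A44. The share of all genes of the array called in these ways was not worked out. The counts per gene are therefore not read as a trait of the family. Agreement in sign over 3 or more tested probe sets was seen in SLC25A17, SLC25A23, SLC25A26 and SLC25A38, which were singled out after their values were seen. For SLC25A17, SLC25A23, SLC25A38 and SLC25A44 these results include probe sets tested only through the group where they were brighter.

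**Figure D4:**
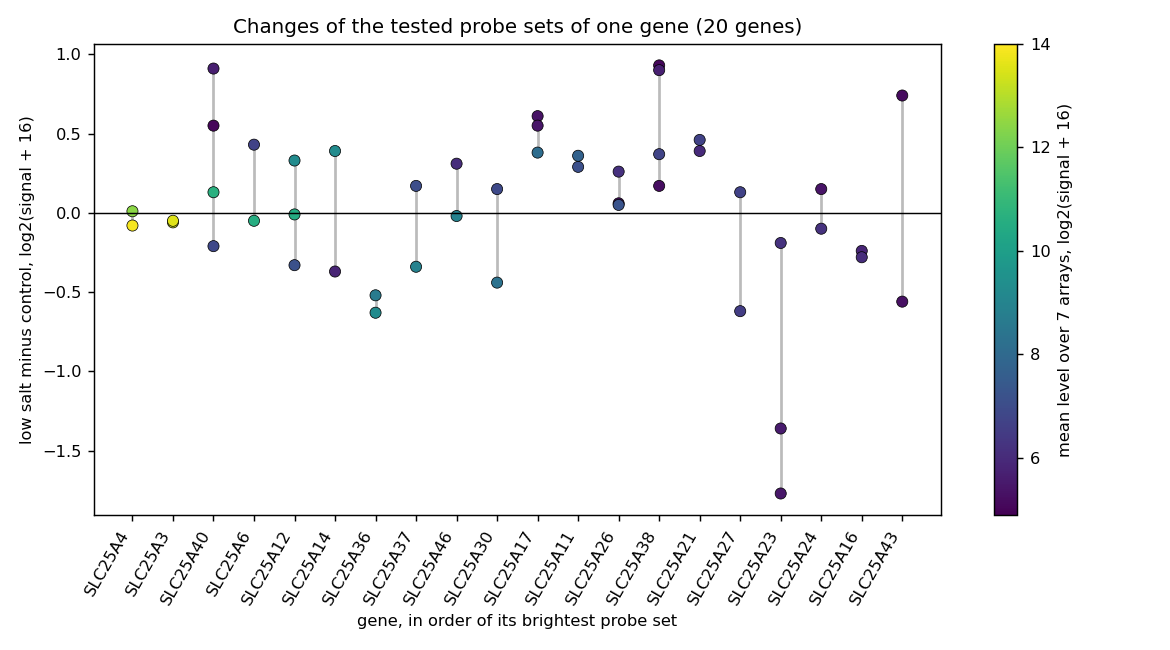
Change (low salt minus control, log2 of signal plus 16) of each tested probe set of the 20 SLC25 genes with more than 1, with genes ordered by their brightest probe set, a grey line joining the probe sets of a gene and colour giving the mean level over the 7 arrays. The brightest probe sets lie near 0, and 11 of the 20 genes have points on both sides of 0 under the scaling plotted.

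Brighter members had smaller errors and smaller changes. The 13 members at or above the 90th percentile of array signal had a median SE of 0.21 and a median absolute change of 0.08, with 1 of 13 (SLC25A36) under an unadjusted limma p of 0.05. Over all probe sets in that range the median absolute change was 0.16, and 10.1% were under that p. The 37 members between the 50th and 90th percentiles had a median SE of 0.32 and a median absolute change of 0.36, beside 0.30 for the array. The 13 below the 50th percentile had 0.44 and 0.55, beside a median absolute change of 0.36 for the array. Under the same unadjusted limma p there were 6 of the 37, against 11.7% of the array in that range. Below the 50th percentile there were 2 of 13, against 10.1%. These calls include 4 probe sets tested only through 1 group, so the counts by range are not read as a trend. The median absolute change of the carriers was thus below that of the array in the upper range and above it in the others, which is given as a description.

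**Figure D5:**
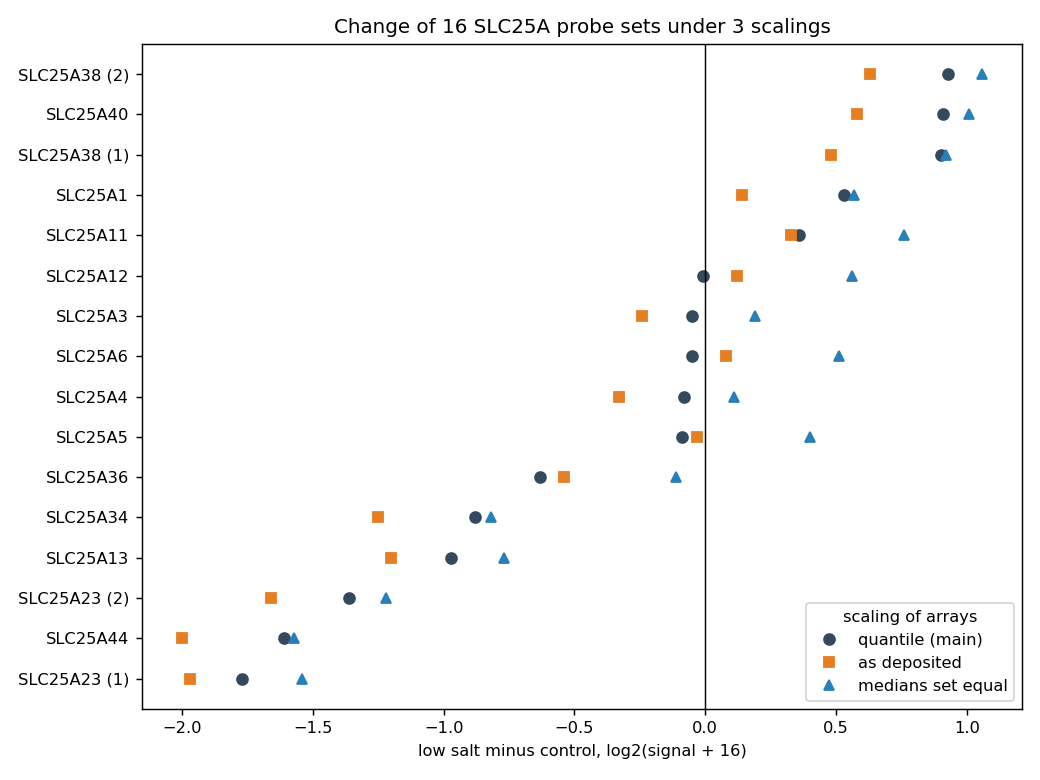
Change (low salt minus control, log2 of signal plus 16) of 16 SLC25 probe sets, those with an unadjusted limma p under 0.05 and the brightest of 8 energy carriers, under quantile normalization (circles), as deposited (squares) and after setting array medians equal (triangles). SLC25A23, SLC25A44, SLC25A13 and SLC25A34 stay at -0.77 or lower under each scaling, SLC25A38 and SLC25A40 stay above 0, and SLC25A3, SLC25A4, SLC25A5, SLC25A6 and SLC25A12 take either sign.

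The related gene lists are set here beside the shares of the array, where 5.27% of tested probe sets were higher and 5.78% lower at an unadjusted limma p under 0.05. Of the family members under other names (UCP1, UCP2, UCP3, MTCH1 and MTCH2), 1 of 11 tested probe sets was higher at an unadjusted limma p under 0.05 and 0 lower: UCP3, an uncoupling protein of muscle, at 0.98 ± 0.38 (limma, adjusted p = 0.371), with 0.53 ± 0.45 on its brightest probe set. Of 19 genes for other solute transport across the mitochondrial membranes, 1 of 35 probe sets was higher and 3 were lower, near the 11% of the array in either direction. VDAC1, the main pore of the outer membrane, differed by -1.49 ± 0.37 on a dimmer probe set (limma, adjusted p = 0.141) and by 0.07 ± 0.09 on its brightest. LETM1, a cation exchanger component of the inner membrane, differed by 0.92 ± 0.37 (limma, adjusted p = 0.391). Its control level of 4.62 lay under the filter level, so it was tested only through the low-salt samples.

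The machinery that imports carriers, from the TOM pore to the small TIM chaperones and TIMM22, had 3 of 26 probe sets higher and 0 lower at an unadjusted limma p under 0.05, against 5.27% and 5.78% of the array, with a median of 0.15. They included TOMM40, the channel of the outer membrane, at 0.95 ± 0.35, and TOMM7, at 0.39 ± 0.17. Of the 9 ATP synthase genes on the array, ATP5F1C was at 0.31 ± 0.13 (limma, adjusted p = 0.402), and ATP5F1A was at -0.82 ± 0.32 on 1 probe set and 0.01 ± 0.12 on its brightest. The median over their 15 probe sets was 0. Among regulators of mitochondrial genes PPARGC1A, the coactivator PGC-1α, was at -0.74 ± 0.25 (limma, adjusted p = 0.301) and GABPA at 0.68 ± 0.34, with 0.25 ± 0.22 on its brightest probe set. No probe set of these lists passed an adjusted limma p of 0.05, against 0.346% of the array.

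The 22 SLC25 probe sets under the filter carried no test. Their changes ran from -0.83 (SLC25A15, an ornithine carrier, chosen here as the extreme) to 0.61 (SLC25A48), with a median of 0.03 and 12 above 0. The groups were without overlap for 2 of them, one of SLC25A11 (higher) and one of SLC25A37 (lower). In deposited signal the groups of the SLC25A11 probe set overlapped. SLC25A20, the carnitine/acylcarnitine carrier of fatty acid oxidation, was not analysed here.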

How the data were processed

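Left ventricular total RNA, extracted with Trizol and labelled with biotin per the labels' protocols, was read on 7 one-colour arrays (3 control, 4 low salt). The deposited values are intensity values on a linear scale made with GCOS, per the submitters' processing notes; no version, probe summary or genome build is given in the sources used here. From them log2(intensity + 16) was quantile normalized, because array medians differed by over 0.25. The 111 control probe sets and those of the 42924 others with a mean under about 5 on this scale were left out, and 28616 were tested with limma 3.58.1 in R 4.3.3 (lmFit, eBayes with trend, two-sided) with Benjamini-Hochberg adjustment, a method tested on simulated data. Arrays give no counts, so their number limits the precision.

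Members were named from the platform annotation; 80 of 85 were found by gene number in a dog gene table (UU_Cfam_GSD_1.0), with 0 differing symbols, and the platform's symbol was kept for the rest. By suffix 47 probe sets end in _at and 38 in _s_at, the array maker's mark for probes shared by several transcripts. Values by sample are given for each member with an unadjusted p under 0.05 and for the brightest probe set of SLC25A1, A3, A4, A5, A6, A11, A12 and A13; SLC25A20 and A22 were in that rule and have no probe set here. Up to 2 genes of smallest p were named per related list. The members and lists were chosen with earlier results of these data known. The 19 alternatives were offsets of 1 and 64, other scalings, filters, weights and tests, a replicate block, each sample left out, and 1 value per gene.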

Additional observations from a re-analysis of the deposited data

Results flagged for a closer look

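In the SLC25A23 probe set CfaAffx.28495.1.S1_at, low-salt sample 3 stood at 5.80 on the log2 scale of signal plus 16 while the other low-salt samples stood at 4.21 to 4.46. The gap to its nearest neighbour was 0.839 of the range of the group, just above Dixon's 95% critical value for 4 samples. It was the only one of 16 probe sets examined in which a low-salt sample stood apart by this measure, and chance flags about 1 group in 20. The 3 controls are too few for the same test. The low-salt mean of 4.69 lay under the filter level, so this probe set was tested only through its controls. The other low-salt samples had deposited signals of 1.40, 2.02 and 3.26, which the offset of 16 brings close together at the bottom of the scale. The measure therefore cannot decide whether low-salt sample 3 is unusual, and nothing is concluded from it.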

How the results depend on the processing

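The count of all probe sets past an adjusted p of 0.05, 99, was 39 with an offset of 1, 165 as deposited, 27 without the filter, 177 with array weights, 19 without the trend, 4 by the methods' t-test, and 21 to 290 with one sample left out. For the SLC25 family that count of 0 was 1 as deposited (SLC25A44), 1 with array weights and 0 to 1 with one sample left out (both SLC25A23). The 3 members higher at an unadjusted p under 0.05 were 0 as deposited, 5 with array medians set equal, 0 and 1 with the brightest or the mean probe set per gene, and 1 (without low-salt 4) to 5 (without low-salt 3) with one sample left out, which moved the 6 lower ones between 3 (without control 1) and 8. The family's median of 0.08 was -0.11 as deposited, 0.32 with medians set equal, 0.01 above the median signal, -0.02 and 0.02 per gene, and -0.01 to 0.11 with one sample left out. The cause was not tested. Signs turned for SLC25A6 (0.08 as deposited, 0.51 with medians set equal, up to 0.15 with one sample left out, from -0.22), SLC25A12 (0.12, 0.56, and -0.13 to 0.07), SLC25A5 (0.40 with medians set equal, -0.18 to 0.04), SLC25A3 (0.19) and SLC25A4 (0.11). Same-numbered samples did not deviate together (correlations 0.07, -0.26 and -0.18). The labels do not say whether the numbers pair the samples. These correlations cannot decide it, because a pairing need not show in the deviations of whole arrays. A replicate block gave 28 probe sets past an adjusted limma p of 0.05, a family median of 0.01, and 0.08 and 0.03 for SLC25A6 and SLC25A12.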
